A study of Mus musculus with 12 samples.

Results

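Zinc finger genes whose names begin with Zfp, Zbtb, Zkscan or Zscan were taken from a promoter Capture-C study of mouse haematopoietic stem cells (HSCs). The names were read without the trailing number that marks an alternative promoter, and Zfp423 and Zbtb8os were left out. The choice gave 86 of the 3374 captured genes, 90 of the 3781 captured promoter fragments and 1897 of the 89545 listed contacts. Captured here means having a listed contact, and a promoter that was captured without one would be missing. Of the 90 promoters, 17 lay on chromosome 17, 13 on chromosome 7, 11 on chromosome 5 and 10 on chromosome 13.

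Capture-C ligates the ends of cross-linked, digested chromatin and enriches the products of chosen promoters, so that sequencing shows which distal stretches a promoter touched. Fetal HSCs came from the fetal liver at embryonic day 14.5 and adult HSCs from the bone marrow of mice aged 6 to 8 weeks, all of strain B6129SF1 and sorted as Lin-Sca1+cKit+CD135- cells. Each population gave 4 libraries, 2 in each of 2 capture batches, called batch 1 and batch 2 here. The batches had no listed gene in common, so neither repeats the other. The study compared the promoter contacts of both populations. The series also holds 4 samples of HPC7, a line of blood stem and progenitor cells derived from embryonic stem cells, 2 labelled WT and 2 labelled TCF3KO, which were not analysed here. For the fetal and adult HSCs the labels name no further genotype, treatment or allele, and whether the cells of several animals were pooled is not given in the sources used here.

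Most of these proteins carry C2H2 zinc fingers, each a small loop that holds a zinc ion and reads a few bases of DNA. Many Zfp proteins pair the fingers with a KRAB domain, which recruits silencing machinery and serves to repress transposable elements, and their genes multiplied by local duplication into clusters of similar copies. Zbtb proteins carry a BTB domain, through which they pair and bind corepressors, Zscan and Zkscan proteins carry a SCAN domain, and proteins of the Zfp36 family instead use CCCH fingers to bind AU-rich mRNA and speed its decay.

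Because copies within a cluster can share sequence, the promoters were first compared with each other. Of the 86 genes, 74 had a promoter window in the RefSeq tables (build GRCm38.p6), and the 250 bases before each start site were used, 97 windows in all. These are reference sequences of another build than the mm9 coordinates of the contacts, and whether a window lies inside a captured fragment was not tested. The windows of Zfp758 (chr17:22361213-22361462, plus strand) and Zfp942 (chr17:21962465-21962714, minus strand) are shown because their promoters gave the most counted contact of the group. Capitals mark a stretch of 87 bases that both hold without a mismatch in opposite orientation, so that one reads as the reverse complement of the other.
Zfp758: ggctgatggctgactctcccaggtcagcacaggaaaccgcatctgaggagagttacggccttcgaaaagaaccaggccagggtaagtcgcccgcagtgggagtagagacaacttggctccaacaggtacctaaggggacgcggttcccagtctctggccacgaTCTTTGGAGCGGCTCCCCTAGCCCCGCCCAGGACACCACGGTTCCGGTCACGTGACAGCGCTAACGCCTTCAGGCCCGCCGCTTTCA
Zfp942: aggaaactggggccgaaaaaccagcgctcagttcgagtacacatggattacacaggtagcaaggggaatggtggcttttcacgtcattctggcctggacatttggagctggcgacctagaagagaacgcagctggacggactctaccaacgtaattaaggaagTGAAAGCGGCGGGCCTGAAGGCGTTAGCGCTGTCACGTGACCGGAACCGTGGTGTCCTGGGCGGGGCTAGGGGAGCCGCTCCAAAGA
Zfp12 (chr5:143234913-143235162, plus strand) and Zfp316 (chr5:143270023-143270272, minus strand) are shown as a contrast, since they contacted each other with high counts and shared no stretch longer than 8 bases. Capitals mark the GC box letters GGGCGG in Zfp12 and the ETS core letters CCGGAAG in Zfp316.
Zfp12: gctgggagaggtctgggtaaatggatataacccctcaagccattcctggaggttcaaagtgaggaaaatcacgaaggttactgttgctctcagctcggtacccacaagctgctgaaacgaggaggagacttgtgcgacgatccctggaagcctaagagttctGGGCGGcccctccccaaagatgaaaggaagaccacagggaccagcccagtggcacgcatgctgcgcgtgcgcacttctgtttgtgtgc
Zfp316: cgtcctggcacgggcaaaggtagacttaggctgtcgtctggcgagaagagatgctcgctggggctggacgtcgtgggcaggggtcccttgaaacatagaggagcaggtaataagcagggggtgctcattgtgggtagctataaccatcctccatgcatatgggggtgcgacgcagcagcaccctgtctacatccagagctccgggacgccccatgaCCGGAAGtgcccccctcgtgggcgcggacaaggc

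Closer copies lay outside the captured set. The window of Zfp758 was 99.6% identical to that of Zfp943 over 243 aligned columns, and that of Zfp942 was 99.6% identical to that of Zfp944 over 225 columns. Zfp959 matched Zfp119b at 96.8%, Zfp932 matched Gm32856 on chromosome 8 at 91.2%, Zfp738 matched Zfp729a at 88.5%, Zfp874b matched Zfp874a at 87.3% and Zfp933 matched AW146154 at 76.2%. These genes were among the 8 members with an alignment score of 100 or more to another gene's window. Contacts between promoters of this kind are therefore uncertain, since reads of similar copies may be placed at the wrong one, and the way such reads were handled is not given in the sources used here.

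Among the letters searched on both strands, the ETS core CCGGAAG, the core site of ETS factors, stood in 21 of the 97 windows (21.6%, exact 95% interval 13.9 to 31.2). It stood in 11.4% of the windows of all captured genes and in 6.91% of all 32851 windows. The GC box GGGCGG, read by Sp and Klf factors, stood in 44.3% against 55.3% of captured windows and 32.7% of all, and the letters TATAAA in 9.28% against 7.03% and 12.4%. The letters AAGATGGC, a site of the factor YY1, stood in 1 window. The letters AGATAAG, a site of the red cell factor Gata1 and its relatives, also stood in 1. The windows held a median of 10 CpG sites at 53.6% G and C, against 14 sites and 59.2% for captured genes. A match of letters is a description and not a measured binding site.

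The deposited table gives 1 pooled value per contact, population and batch. There is no replicate error, no difference can be set against the spread between libraries, and no p-value is given. A contact joins a captured promoter fragment to a distal bin of 2 kb, and was counted as called in a population when its score, which behaves as a −log10 p-value, was above 0. The smallest such score was 1.3 in batch 1 and 2 in batch 2, so each batch is described apart. Each share has a 95% interval by the exact method of Clopper and Pearson. It covers counting error only, and adjacent bins called together make it too narrow. The median count of a called contact of the zinc finger promoters was 9 fetal and 10 adult counts in batch 1 and 26 and 28 in batch 2. Expression is 1 FPKM value (fragments per kilobase of transcript, scaled to library size) per promoter entry and population. In FPKM, Kit, a marker of the sort, stood at 32.8 in fetal and 50.5 in adult cells, and Flt3, which encodes the CD135 that the sort selected against, at 6.20 and 3.81.

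Zinc finger genes were expressed at low levels, and most stood higher in adult than in fetal HSCs. Adult FPKM was the higher value at 30 of 36 promoters in batch 1, where this held for 51.3% of all captured promoters, and at 46 of 54 in batch 2, where it held for 54.1%. The median log2 ratio of fetal to adult FPKM, 1 added to each side, was -0.67 and -0.64 in the respective batches, against -0.04 and -0.54 over all captured promoters. With 0.1 added in place of 1, the median of batch 2 was -1.04. Many of the adult levels were at least 2 times the fetal ones. In FPKM as deposited, with no value added, this was so at 16 of 36 promoters in batch 1 (background 19%) and at 33 of 54 in batch 2 (39.2%). The reverse, a fetal level at least 2 times the adult one, was found at 0 promoters in batch 1 (12.3%) and at 1 in batch 2 (18.7%), Zfp568. Adding 1 to levels this low shrinks the ratio, and on that scale 5 promoters of batch 1 (background 13.3%) and 6 of batch 2 (16.1%) were past a log2 ratio of 1 towards the adult, shares near the background, and 0 and 0 towards the fetus (5.07% and 11.4%). In bulk samples, fewer cells of a type and less RNA per cell cannot be told apart.

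In batch 1, the authors' deposited table marks 13 of the 36 promoters as differentially expressed, and all 13 stood higher in the adult. Over all captured promoters of that batch, the authors' deposited table marks 19.7% with adult FPKM higher and 15.8% with fetal FPKM higher. Of the 23 promoters without the mark, 17 stood higher in the adult, against 617 of 1259 over all captured promoters without it. In batch 2 every one of the 1829 captured promoters carries the mark in the authors' deposited table, so the set itself was one of differing genes. There 46 zinc finger promoters stood higher in the adult and 8 in the fetus, beside 54.1% and 45.9% of all. The fetal median was 2.28 FPKM in batch 1 and 1.04 in batch 2, and the adult median 3.34 and 2.07. The medians over all captured promoters were 8.6 and 2.81 in fetal and 10.1 and 3.54 in adult cells. A level over 10 FPKM in either population was reached by 6 of 36 promoters in batch 1 (16.7%, all captured 56.2%) and by 0 of 54 in batch 2 (all captured 26.6%).

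**Figure D1:**
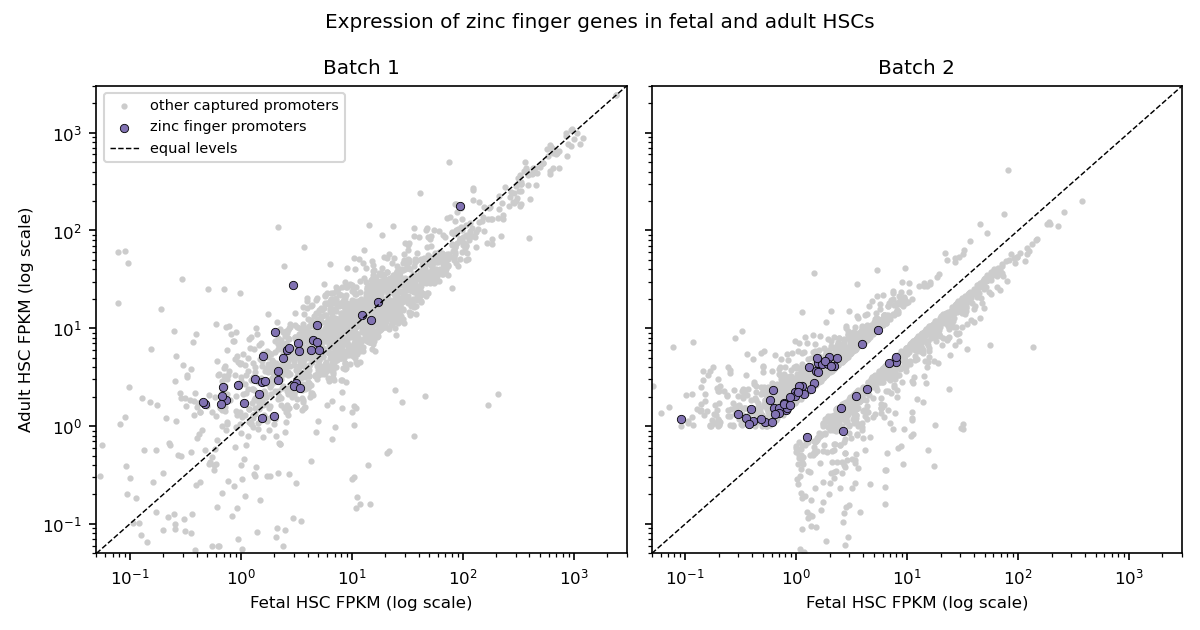
FPKM of each captured promoter in fetal (x axis) and adult (y axis) HSCs, on log axes, for batch 1 (left) and batch 2 (right). Purple points are zinc finger promoters, grey points all other captured promoters above 0 in both, and the dashed line marks equal levels. Of the purple points, 30 of 36 and 46 of 54 lie above the line, and the gap along the line in batch 2 belongs to a set in which every promoter is marked as differing.

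The CCCH genes had the highest adult levels of the group. Zfp36, which encodes the mRNA decay factor tristetraprolin, stood at 2.94 FPKM in fetal and 27.4 in adult cells, 9.32 times as high. The authors' deposited table does not mark it as differing. Its relative Zfp36l2 had the highest level of all members, 94 FPKM in fetal and 177 in adult cells. Of the 4 genes of this family, these were the captured ones, and both stood higher in the adult.

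Of 15 BTB factors listed for roles in blood cells, 4 were captured, and all 4 stood higher in the adult. Zbtb16 encodes PLZF, a factor of stem cells and innate lymphocytes, and stood at 0.579 FPKM in fetal and 1.84 in adult cells. Zbtb20, known as a repressor of the fetal gene alpha-fetoprotein in liver, had the lowest fetal level of any member, 0.0916 FPKM, and 1.19 in the adult. Zbtb38 and Zbtb4, both of which bind methylated DNA, stood at 1.96 against 5.06 and at 1.56 against 4.40 FPKM. The captured genes of the 12 listed stem and progenitor factors were Zfp148 (2.19 against 4.13 FPKM) and Zfp827 (0.879 against 1.64). None of the 2 GATA cofactors was among the promoters with a listed contact.

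The other large adult excesses were at Zfp genes. Zfp715 stood at 2.04 FPKM in fetal and 9.25 in adult cells, Zfp932 at 1.60 and 5.23, Zfp945 at 0.686 and 2.49, and Zfp68 at 4.85 and 10.9. In batch 2, Zfp386 stood at 1.53 and 4.98, Zfp141 at 1.3 and 4.02 and Zfp532 at 0.612 and 2.36. The higher fetal values were led by Zfp568, a KRAB factor that represses the placental Igf2 promoter in the embryo, with 2.62 FPKM in fetal and 0.897 in adult cells. Zfp444 followed with 7.91 and 4.56, Zfp668 with 4.30 and 2.40, Zfp64 with 7.94 and 5.09 and Zbtb34 with 3.46 and 2.04. Zfp57, which keeps imprinted regions methylated, stood on the other side with 0.681 FPKM in fetal and 2.02 in adult cells. The 4 genes named Zkscan or Zscan also stood higher in the adult, among them Zkscan5 with 2.18 against 2.97 FPKM and Zscan29 with 1.03 against 2.21.

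The number of called contacts differed little between the populations. The zinc finger promoters had 615 fetal and 606 adult calls in batch 1 and 590 and 595 in batch 2, a log2 ratio of 0.02 and -0.01. Over all captured promoters it was 0.08 and 0.10. With called bins up to 5 kb apart merged to 1 call, the ratio of batch 2 turned to 0.17. More fetal calls were found at 17 promoters and more adult calls at 17 in batch 1, where 48.1% and 42.1% of all captured promoters leaned each way. In batch 2 the numbers were 23 and 27, with 50.1% and 38.1% over all. Among promoters with 10 or more calls, 1 of 28 in batch 1 was past a log2 ratio of 1 towards the fetus (background 6.57%) and 1 towards the adult (4.07%). In batch 2, 2 of 35 were past it towards the fetus (5.45%) and 1 towards the adult (3.33%). The number of calls thus leaned to neither population, unlike the levels.

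**Figure D2:**
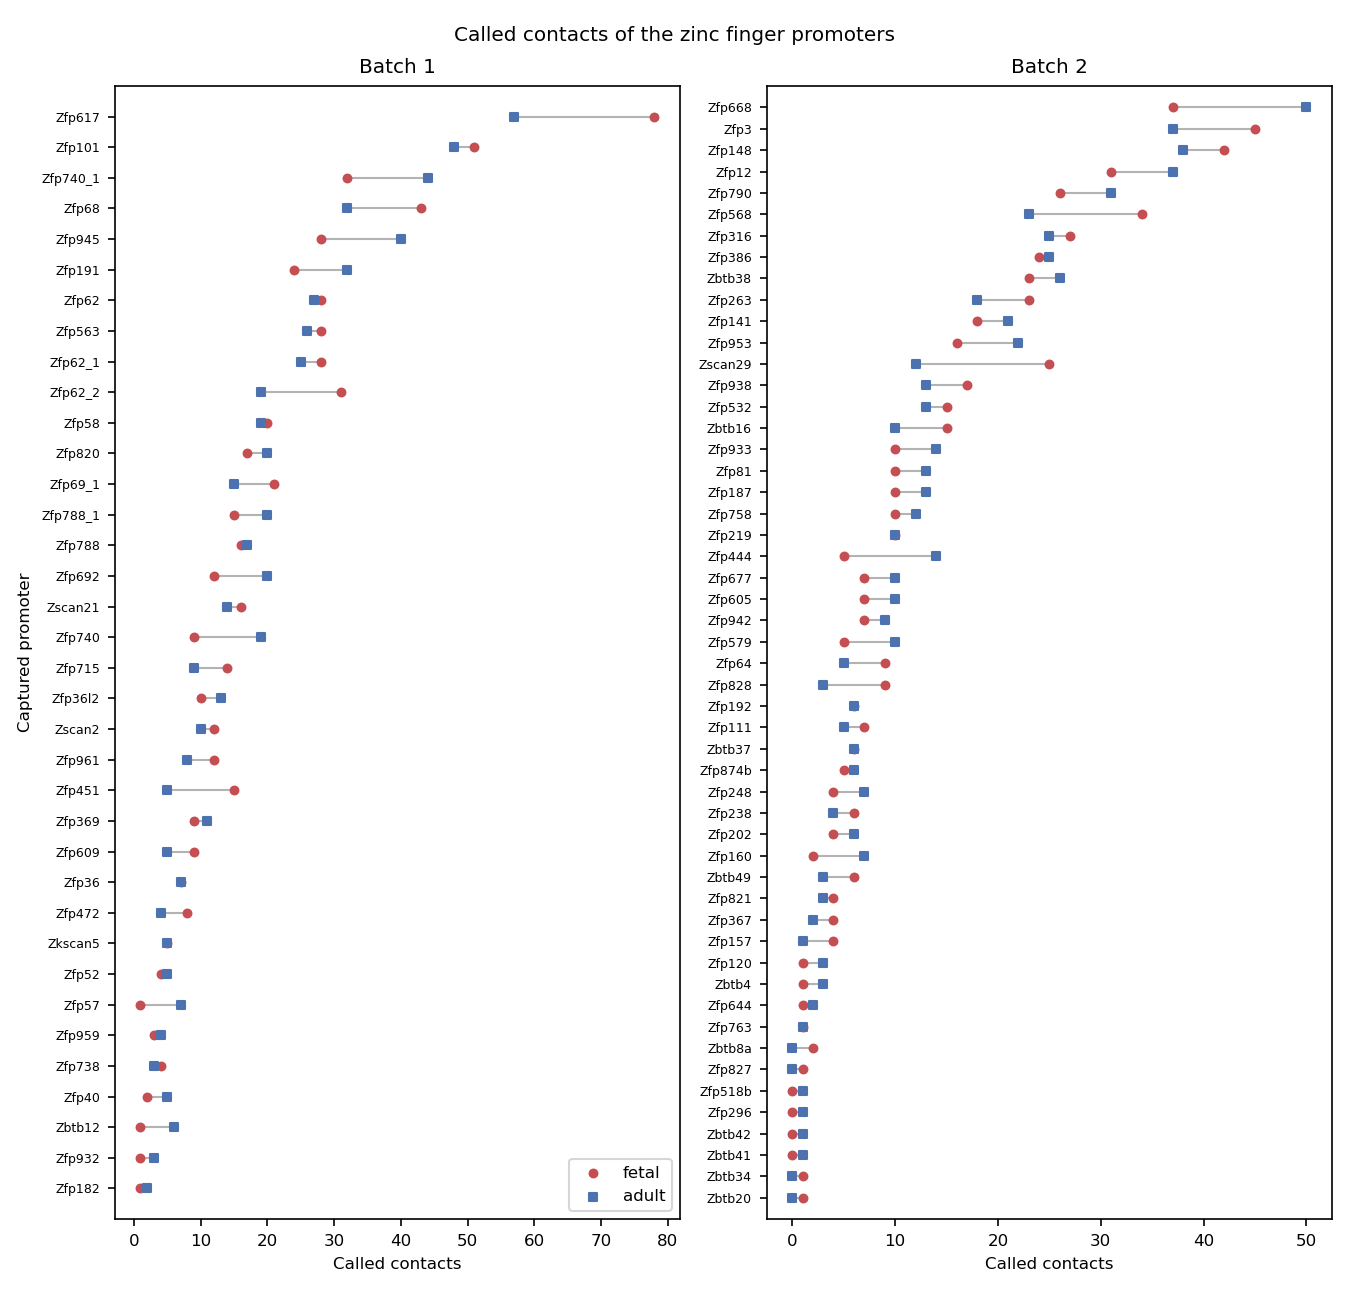
Called contacts of the zinc finger promoters, 2 of them not shown, in fetal (red circles) and adult (blue squares) HSCs, with a grey line joining both values, for batch 1 (left) and batch 2 (right). Promoters are ordered by their calls in both populations together, and circles and squares exchange sides from promoter to promoter.

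Zfp617 had the most calls of all members, 78 fetal and 57 adult, followed in batch 1 by Zfp101 with 51 and 48 and by the second promoter of Zfp740 with 32 and 44. In batch 2 Zfp668 had 37 fetal and 50 adult calls, Zfp3 had 45 and 37 and Zfp148 had 42 and 38. Among promoters with 20 or more calls, the most fetal ratios belonged to Zfp451 (15 fetal and 5 adult calls) and Zscan29 (25 and 12), and the most adult ones to the first promoter of Zfp740 (9 and 19), Zfp692 (12 and 20) and Zfp945 (28 and 40). With fewer calls, Zfp828 had 9 and 3 and Zfp444 had 5 and 14. Calls and levels did not run together at each gene. Zfp568, with the largest fetal excess of FPKM, had 34 fetal and 23 adult calls. Zfp668, also higher in the fetus, had more calls in the adult, and Zfp715, much higher in the adult, had 14 fetal and 9 adult calls. At the other end, Zbtb20 had 1 fetal and 0 adult calls and Zbtb4 had 1 and 3.

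The same bin was called in both populations for 38.5% of the fetal calls (34.7 to 42.5) and 39.1% of the adult calls (35.2 to 43.1) in batch 1. In batch 2 it was 47.3% (43.2 to 51.4) and 46.9% (42.8 to 51.0). Over all captured promoters these shares were 39.6% and 41.9%, then 52.2% and 55.9%. With bins up to 5 kb apart taken as the same, the shares of the zinc finger promoters rose to 65.4% and 64.9%, then 67.6% and 73.9%. Counts over the listed contacts came to 11652 fetal and 10507 adult in batch 1 and to 26885 and 25566 in batch 2, a log2 ratio of 0.15 and 0.07. Over all captured promoters it was 0.16 and 0.19. With the batch totals made equal, the ratio turned to -0.011 and -0.12.

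The contacts of zinc finger promoters reached far. Within a chromosome, 33.6% of the fetal calls (29.8 to 37.5) and 27.8% of the adult calls (24.2 to 31.6) of batch 1 lay 300 kb or more from the promoter, against 21.6% and 20.0% over all captured promoters. In batch 2 the shares were 12.1% (9.59 to 15) and 10.7% (8.29 to 13.4), against 5.54% and 4.45%. Part of these 71 fetal and 63 adult calls came from promoters with contacts set apart below as possible copies of similar sequence. Zfp141 on chromosome 7 had 18 fetal and 21 adult calls, at medians of 892 and 870 kb. On chromosome 17, Zfp758 had 10 and 12 calls, both at a median of 400 kb. Zfp942, also there, had 7 and 9 at 394 and 396 kb. The share without these promoters alone was not computed, and what part similar sequence has in these calls was not tested. Without chromosomes 17, 7, 13 and 5, which hold most members, the shares were 29.2% and 20.2% in batch 1 (all captured 21.9% and 20.3%) and 9.80% and 7.81% in batch 2 (5.34% and 4.23%). The adult excess of batch 1 was thus not seen outside these chromosomes, while the other shares still stood above those of all captured promoters. In batch 1 much of the fetal share there came from Zfp62 on chromosome 11. Its adjoining fragments had 28, 28 and 31 of the 298 fetal calls, at median distances of 343, 331 and 342 kb. The share without Zfp62 was not computed.

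Fetal contacts were longer than adult ones, as over the whole table. The median distance was 198 kb for fetal and 170 kb for adult calls in batch 1 (all captured 178 and 153 kb) and 111 and 79.4 kb in batch 2 (102 and 77.8 kb). Near the promoter more contacts were called in the adult alone. At 20 to 60 kb, 10 contacts were called in fetal cells alone and 46 in adult cells alone in batch 1, and 25 and 144 in batch 2. Over all captured promoters these numbers were 701 and 1597, then 969 and 5241. At 150 to 300 kb the order was the reverse, with 139 fetal and 112 adult contacts called in 1 population in batch 1 and 104 and 39 in batch 2. The whole table leaned the same way, with 8447 and 5298, then 3971 and 1504.

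The distal bins were more often active promoters and less often active enhancers than those of all captured promoters. The deposited marks give each bin's state in each population, and each call was read with the mark of its own population. An active promoter stood in 25.7% of the fetal calls (22.3 to 29.3) and 30.2% of the adult calls (26.6 to 34.0) in batch 1, against 15.6% and 18.3% over all. In batch 2 it stood in 27.3% (23.7 to 31.1) and 32.3% (28.5 to 36.2), against 18.2% and 20.3%. An active enhancer stood in 8.46% of fetal and 7.10% of adult calls, against 12.7% and 13.1%, and then in 7.80% and 6.55%, against 12.9% and 13.7%. Open chromatin (ATAC) was close to the whole table in batch 2, 54.7% and 57.0% against 56.7% and 57.1%, and stood at 60% and 60.9% against 53.0% and 54.6% in batch 1.

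The excess of active promoters was smaller on the remaining chromosomes. Without chromosomes 17, 7, 13 and 5 it was 21.7% of fetal and 25.9% of adult calls in batch 1 (all captured 15.2% and 17.7%) and 17.1% and 24.4% in batch 2 (17.3% and 19.3%). The fetal excess of batch 2 was thus not seen there. Active enhancers on the remaining chromosomes stood in 10% of fetal and 7.55% of adult calls in batch 1 (all captured 12.8% and 13.4%) and in 11.4% and 10.5% in batch 2 (13.4% and 14.3%), so that the deficit of batch 2 was smaller there. With bins that hold another captured promoter left out of the zinc finger calls, the active promoter shares were 20.9% and 22.9%, then 23.4% and 27.3%. The same was not computed over all captured promoters. Contacts called in 1 population at an enhancer active in the fetus alone or in the adult alone numbered 15 and 15 in batch 1 and 14 and 8 in batch 2, too few to tell a lean.

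**Figure D3:**
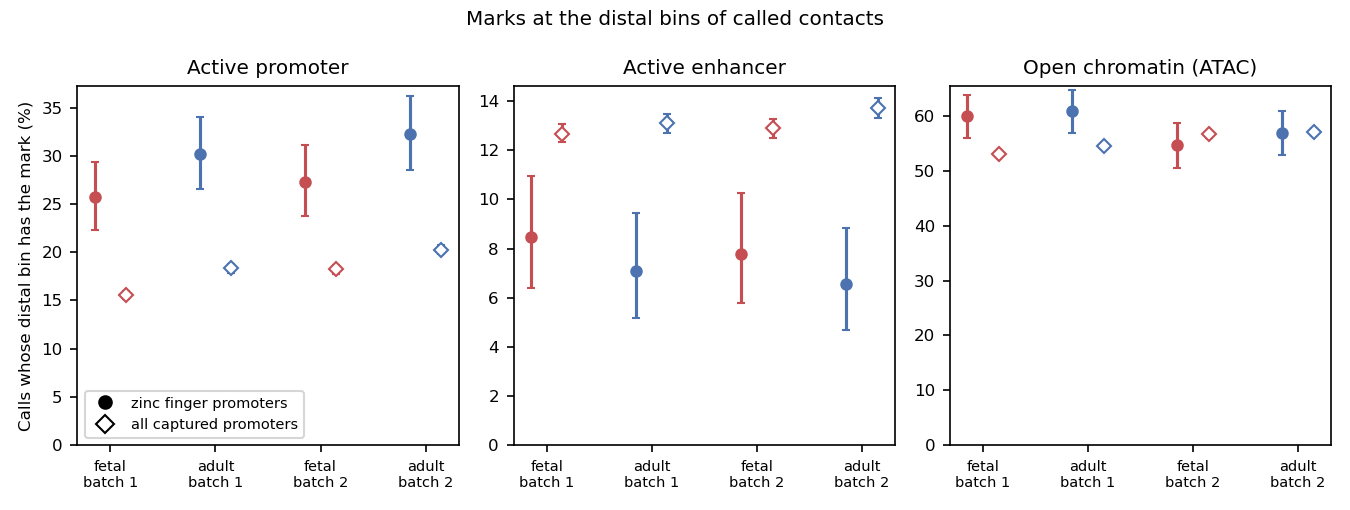
Share of called contacts whose distal bin holds an active promoter, an active enhancer or open chromatin, in percent, for fetal (red) and adult (blue) calls of batches 1 and 2. Filled circles are zinc finger promoters and open diamonds all captured promoters, with exact 95% intervals for counting error. The filled circles lie above the diamonds for active promoters and below them for active enhancers in all 4 columns.

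Zinc finger promoters contacted each other, and in batch 1 a larger share of their pairs was called than of other captured pairs, with distance not matched. The distal bin held another captured zinc finger promoter at 1.95% of fetal and 3.47% of adult calls in batch 1 and at 1.86% and 2.52% in batch 2. Counting zinc finger promoters within 5 kb of the bin gave 4.23% and 5.94%, then 4.24% and 6.39%. With overlap required, the shares for the other captured promoters were 0.0887% and 0.124%, then 0.117% and 0.129%. To set this against distance, pairs of captured promoters 20 kb to 1 Mb apart were counted, each in the direction from the capturing promoter. The same contact can thus count from both ends and from each captured promoter of a gene. The pairs are therefore not independent, and their intervals are too narrow. Pairs of zinc finger promoters also lay closer together, at a median of 310 kb against 455 kb for all pairs in batch 1. In batch 2 these medians were 327 and 430 kb. Of 46 such pairs of zinc finger promoters in batch 1, 11 were called in fetal cells (23.9%, 12.6 to 38.8) and 19 in adult cells (41.3%, 27.0 to 56.8), against 11.4% and 13.5% of all pairs. In batch 2, 11 (17.5%, 9.05 to 29.1) and 14 (22.2%, 12.7 to 34.5) of 63 were called, against 16% and 15.4%, which both lie inside these intervals.

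The excess was clearest at long range in batch 1, where some pairs were the same contact counted from both ends or from alternative promoters. The fetal calls there held Zfp101 and Zfp563 from both ends, and Zfp141 from both promoters of Zfp788. Zfp141, and Zfp758 as called from Zfp820, have contacts of 1000 or more counts that are set apart below. What part similar sequence has in these calls was not tested. At 300 to 1000 kb, 7 of 26 pairs of batch 1 were called in fetal cells (26.9%) and 11 in adult cells (42.3%), against 4.01% and 4.39% of pairs between other promoters. In batch 2 it was 3 and 4 of 35 (8.57% and 11.4%), against 3.35% and 2.49%. Within this class the zinc finger pairs lay closer together, at a median of 445 kb against 635 kb for other pairs in batch 1. In batch 2 these medians were 464 and 641 kb. The shares were not matched for distance within the class, and what part the closer spacing has in them was not tested. At 20 to 100 kb the pairs were few, and all shares but that of adult cells in batch 1 were below those of other pairs, with wide intervals. In batch 2, 2 of 11 were called in fetal cells (18.2%, 2.28 to 51.8) and 5 in adult cells (45.5%, 16.7 to 76.6), against 51.8% and 59.9% of other pairs. In batch 1 it was 1 and 3 of 7 (14.3% and 42.9%), against 27.3% and 36.1%. At 100 to 300 kb, 3 of 13 pairs of batch 1 were called in fetal cells (23.1%) and 5 in adult cells (38.5%, 13.9 to 68.4). Of other pairs, 24.3% and 27.0% were called. In batch 2 it was 6 and 5 of 17 (35.3% and 29.4%), against 30.8% and 25.9%. The fetal excess of batch 1 was thus seen at 300 to 1000 kb only.

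Chromosome 17 gave 27 of the 46 pairs of batch 1 with 8 of the 11 fetal and 14 of the 19 adult calls, and 29 of the 63 pairs of batch 2 with 2 and 4 calls. Without it the shares of batch 1 fell to 15.8% in fetal and 26.3% in adult cells, on 19 pairs (all pairs 11.9% and 13.8%). Those of batch 2 moved the other way, to 26.5% and 29.4% on 34 pairs (all pairs 16.7% and 15.9%).

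**Figure D4:**
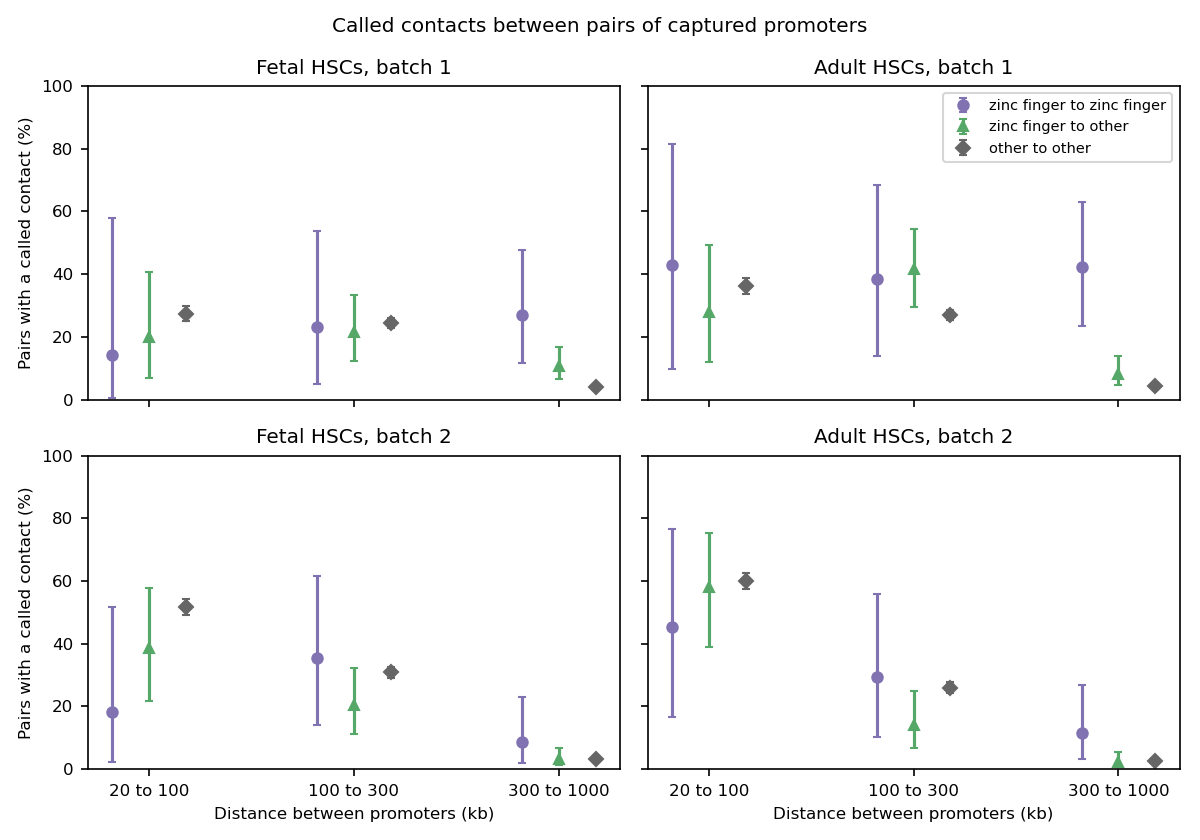
Share of pairs of captured promoters with a called contact, in percent, against the distance between them in 3 classes (kb), for fetal (left) and adult (right) HSCs of batch 1 (top) and batch 2 (bottom). Circles are pairs of zinc finger promoters, triangles pairs from a zinc finger to another promoter and diamonds pairs of other promoters, with exact 95% intervals. Pairs are counted from each end, which makes the intervals too narrow. At 300 to 1000 kb in batch 1 the circles stand at 26.9% and 42.3%, far above the diamonds. The median distance of the pairs there was 445 kb for circles and 635 kb for diamonds.

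Over both batches, 38 of the 109 ordered pairs were called, 17 in both populations, 16 in adult cells alone and 5 in fetal cells alone. Of the pairs called in 1 population, 76.2% were thus adult, against 53.5% among pairs of other promoters, on 21 pairs. These shares pool batches whose backgrounds lean opposite ways. In batch 1, 3 pairs were called in fetal cells alone and 11 in adult cells alone, beside 476 and 699 pairs of other promoters. In batch 2 it was 2 and 5, beside 520 and 446. The 38 pairs joined 29 of the 86 genes in 23 combinations, 14 of them called from both ends, and 21 of the 38 lay on chromosome 17. A call is a threshold, and the counts were more even, since 21 of the 38 pairs had the higher count in adult and 16 in fetal cells, with 1 equal.

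Zfp101 and Zfp563, 304 kb apart on chromosome 17, met with 23 fetal and 20 adult counts from Zfp101 and with 21 and 21 from Zfp563, called each time. Of the 84 bins of Zfp101, 18 were also bins of Zfp563 (21.4% of the former and 40.9% of the latter). Zfp81, 36.0 kb from Zfp101, shared 9 of them and Zfp472 shared 3. These were the members most alike to Zfp101, and Zfp961 was the only one to share bins with Zfp617, 13 of the 101. Zfp945 met Zfp40 at 326 kb with 23 fetal and 20 adult counts, and in return with 10 and 15.

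Zfp790 and Zfp568, 168 kb apart on chromosome 7, met with more counts in the adult from both ends. From Zfp790 the contact had 25 fetal and 58 adult counts, and from Zfp568 it had 32 and 60. Zfp568 is the gene with the largest fetal excess of FPKM, and Zfp790 stood at 1.36 FPKM in fetal and 2.40 in adult cells. Zfp12 and Zfp316, whose unlike windows are printed above, met at 34.0 kb with 104 fetal and 123 adult counts, and in return with 98 and 116. Zfp12 also had a contact with 214 fetal and 274 adult counts at an active promoter 54.7 kb away, and one at 123 kb with 66 fetal and 17 adult counts, called in fetal cells alone.

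**Figure D5:**
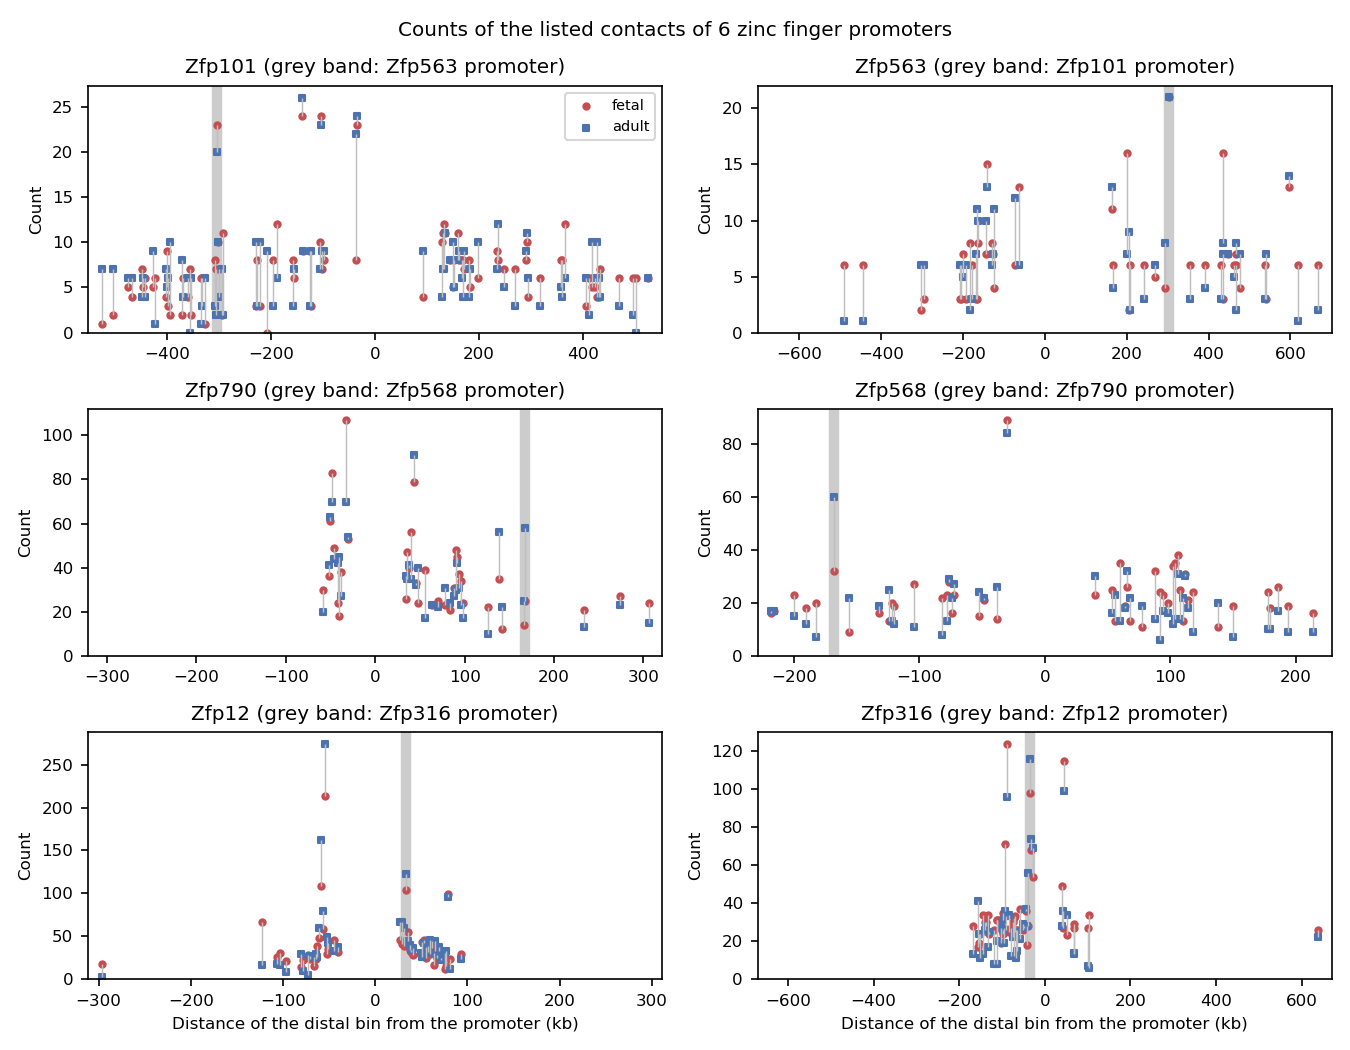
Counts of the listed contacts of 6 zinc finger promoters in fetal (red circles) and adult (blue squares) HSCs, against the distance of the distal bin from the promoter in kb, each promoter in its own panel. Grey bands mark the promoter of the partner gene. The adult squares stand above the fetal circles at the bands in the panels of Zfp790 (58 against 25) and Zfp568 (60 against 32), and both lie close together in those of Zfp101 and Zfp563.

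Zfp141 and Zfp788, 872 kb apart on chromosome 7, were captured in different batches. From Zfp141, in batch 2, the bin that holds both promoters of Zfp788 had 57 fetal and 53 adult counts. On the same side, at 906 kb, lies the bin with 30726 and 28422 counts that is set apart below as a possible copy of similar sequence. What part similar sequence has in the contact at 872 kb was not tested. In batch 1, where a call rests on fewer counts, the contact had 12 and 14 counts from the first promoter of Zfp788. From the second promoter it had 15 and 8. All of these were called. Zfp160 met Zfp677 with 4 fetal and 22 adult counts, called in the adult and not from the other end. At Zfp187 and Zfp192, genes with a SCAN domain that RefSeq lists as Zscan26 and Zkscan8, the contact at 77.2 kb had 18 fetal and 22 adult counts, and in return 17 and 30, called in the adult alone.

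Of the listed contacts of the group, 7 had 1000 or more counts in a population, from 6 promoters, among 165 such contacts in the whole table. They were called in both populations and were kept out of all calls, shares and sums of counts above, as possible copies of similar sequence. Bins beside them with fewer counts stayed in, such as one of Zfp758 at 398 kb with 149 fetal and 106 adult counts. Zfp758 had 48111 fetal and 45854 adult counts in the bin of Zfp942, 400 kb away, and Zfp942 had 43092 and 42673 in the bin of Zfp758 and 2029 and 2308 in the bin beside it. Zfp141 had 30726 and 28422 counts at 906 kb and Zfp932 had 8622 and 5260 at 72.5 kb. Just under the threshold was Zfp874b with 944 and 724 at 32.5 kb, and then Zfp959 with 430 and 117. Of the 8 genes with a close copy of their window, 4 had a contact of 1000 or more counts, among them Zfp758, Zfp942 and Zfp932. Zfp141 is not one of the 8. Zfp758 and Zfp942 share the 87 bases printed above. What part similar sequence has in these counts was not tested.

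Genes with more than 1 captured promoter were also compared by fragment. Their fragments adjoin or lie close together, so the bins they share are no independent check on the group. The 3 fragments of Zfp62 had 28 fetal and 27 adult, 28 and 25, and 31 and 19 calls, and each pair of them shared 21 to 26 bins, 53.8% to 68.4% of a fragment's own. The promoters of Zfp740 shared 23 bins, 88.5% of the 26 of the first and 39.0% of the 59 of the second. Those of Zfp788 shared 13. Over all members, 1544 bins were met by 1 zinc finger gene, 104 by 2 and 17 by 3.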

How the data were processed

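The members, gene lists and comparisons were chosen with earlier results of these data known. Reads were trimmed with Trim Galore 0.41 and aligned with Bowtie2 2.2.2, with build mm9, per the submitters' processing notes. The treatment of duplicate and multiply placed reads is not given in the sources used here. The authors deposited, per contact and population, a whole-number count (sum or mean of libraries not stated) and a score, 0 where not called, that behaves as a −log10 p-value. The authors also deposited FPKM values per promoter, 0 or 1 marks of distal bins and a mark of differential expression, with the making of each not given in the sources used here. Values are pooled per population, so no count test was run.

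Ratios are log2 after adding 1 to each side, except sums of counts. For FPKM the added 1 understates the change of low levels. Distances run between the middles of fragment and bin. A promoter lies in a bin when its fragment overlaps it. Named promoters are the 5 with the largest ratio of calls each way among those with 20 or more calls, the 5 with the most calls, the 5 with the largest FPKM ratio each way and the captured members of the role lists, of which those that show the range are given, and other genes were named after their values were seen. Windows were aligned locally with Biopython 1.88 in both orientations. Shares, medians and pair counts were computed with Python 3.11.15, pandas 2.3.3 and scipy 1.17.1 after being checked on simulated data. For 2 members, their own values are not reported here.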

Additional observations from a re-analysis of the deposited data

How the results depend on the processing

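Of 148 recomputed values, 95 stayed within the interval, or the 1.5-fold range, of the value given, 51 moved and 2 changed sign. No paired analysis was possible because each deposited value stands for all libraries of a population in a batch, with no column per library, and for the same reason no library could be left out. Alternatives by chromosome, FPKM with no value added, those that leave out bins with captured promoters, and all those on pairs and on calls 300 kb or more away were chosen after seeing the data. In what follows values run fetal then adult in batch 1, then fetal and adult in batch 2, unless named. With batch totals made equal, the log2 ratio of counts was -0.011 and -0.12, and with contacts of 1000 or more counts included it was 0.36 in batch 1. With bins up to 5 kb apart merged, the log2 ratio of calls in batch 2 was 0.17. With 0.1 added to FPKM, the second median was -1.04. With no value added to FPKM, 16 and 33 promoters in place of 5 and 6 were past a log2 ratio of 1 towards the adult, and 0 and 1 in place of 0 and 0 towards the fetus. Bins up to 5 kb apart raised the calls found in both populations to 65.4%, 64.9%, 67.6% and 73.9%, and bins up to 20 kb apart to 82.0%, 82.7%, 81.7% and 87.9%. A score 1 unit higher gave 43.3% and 54.1% for the fetal calls, fetal median distances of 178 and 105 kb, active promoters at 34.1%, 34.8%, 34.0% and 41.1%, open chromatin at 68.2%, 68.9%, 61.3% and 64.7%, and active enhancers at 6.13% of fetal calls of batch 1. Over all captured promoters the active promoter share at that score was 19.9%, 23.3%, 22.4% and 24.9%. Marks of either population gave active enhancers at 11.2% and 10.6% in batch 1, and open chromatin at 64.2% of its fetal calls and 61.3% of adult calls of batch 2. Without chromosomes 17, 7, 13 and 5, active promoters stood at 21.7%, 25.9%, 17.1% and 24.4%, active enhancers at 11.4% and 10.5% in batch 2 (all captured 13.4% and 14.3%), open chromatin at 64.3% of fetal calls in batch 1, and calls 300 kb or more away at 29.2% and 20.2% in batch 1 and 7.81% of adult calls in batch 2. With bins of another captured promoter left out, active promoters stood at 20.9%, 22.9%, 23.4% and 27.3%, and open chromatin at 55.5% of adult calls in batch 1. A captured zinc finger promoter within 5 kb was found for 4.23%, 5.94%, 4.24% and 6.39% of calls. Without chromosome 17, the pairs called were 15.8%, 26.3%, 26.5% and 29.4%. The cause of these shifts was not tested. Batch 1 contacts rest on a median of 9 or 10 counts, which limits what a missing call can show.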

Other observations

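Contacts with another chromosome were rare among the zinc finger promoters, 14 of 1897 listed, against 1070 of 89545 in the whole table. Both CCCH genes had some. Zfp36l2 met a bin on chromosome 12 with 188 fetal and 146 adult counts and one on chromosome 7 with 6 and 12, and Zfp36 met neighbouring bins on chromosome 11 with 17 and 11 and with 17 and 22. Zfp148 met neighbouring bins on chromosome 4 with 166 and 172 and with 41 and 42 counts, and Zfp68 one on chromosome 2 with 21 and 23. The highest of these, at Zfp36l2 in batch 1 and Zfp148 in batch 2, lie far above the medians of called contacts. Those medians were 9 fetal and 10 adult counts in batch 1 and 26 and 28 in batch 2. What part similar sequence has in contacts between chromosomes was not tested. Others stood in 1 population: Zfp69 with chromosome 7 at 28 fetal and 1 adult counts, Zfp58 with chromosome 6 at 22 and 0, and Zfp62 with chromosome 8 at 0 and 11.

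Within a chromosome, Zbtb16 had a contact at 99.1 kb with 9 fetal and 38 adult counts, and Zbtb38 contacts at 82.6 kb with 35 and 6 and at 87.4 kb with 51 and 13. The bin at 82.6 kb is marked as an active enhancer in fetal cells and not in adult cells. Zfp932 met an active promoter 131 kb away with 53 and 9 counts, and Zfp738 a bin 47.5 kb away, not marked as active promoter, active enhancer or open, with 221 and 79. Zfp932 and Zfp738 belong to the 8 genes with a close copy of their window, and what part similar sequence has in their counts was not tested. All these are single contacts picked for their counts, without replicates.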
